A study of Mus musculus with 4 samples.

Results

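The mitotic G2/M genes are a set of 55 genes whose products carry a cell from late G2 through chromosome segregation and cytokinesis. Their transcripts were measured by RNA-seq in primary MEFs, fibroblasts cultured straight from mouse embryos that have not become a cell line. Genes were matched by symbol to GENCODE vM21 and kept where the level reached 1 FPKM (fragments per kilobase of gene length and per 1000000 fragments) in at least 1 of the 4 libraries. This kept 53 of the 55, among 12817 genes kept of 55573 gene identifiers. The libraries were a Dyrk2 knockout (Dyrk2-KO, Dyrk2-/-), wild-type cells with an siRNA against Dyrk2 (siDyrk2), wild-type cells given a control siRNA (siNeg), and wild-type cells whose labels name no siRNA (WT). Dyrk2 encodes a protein kinase. All 4 cultures had been given 100 nM SAG, an agonist of the Hedgehog signal transducer Smoothened, for 24 h, so no culture without the agonist enters these comparisons. Each group was 1 library, and the labels do not say how many embryos each culture came from, their age, or how the knockout allele was made. With 1 library a group there is no replicate error, and no test was made within a comparison.

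Most of these genes are transcribed little in G1 and strongly in G2 and M, so in a culture that is not synchronised their summed transcript level follows, broadly, how many cells are dividing. In resting cells and in G1 the MuvB core together with the p130 or p107 pocket protein and E2F4 (the DREAM complex) holds many of them down, and in G2 the same core acts with B-Myb and FoxM1 to switch them on. MuvB reaches these promoters through a short word close to the transcription start, the cell cycle genes homology region, which often lies downstream of CCAAT boxes bound by NF-Y.

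The deposited FPKM values corresponded to 21.9 M (M, 1000000) fragments in the Dyrk2-KO, 21.5 M in the siDyrk2, 19.98 M in the siNeg and 23.9 M in the WT library. The targeted gene followed the labels, with Dyrk2 at 0.57 FPKM in Dyrk2-KO, 0.81 in siDyrk2, 7.06 in siNeg and 6.59 in WT cells. All 10 fibroblast markers were measured in each library, led by Col1a1 at 3275.54 FPKM in Dyrk2-KO, 2376.90 in siDyrk2, 3207.77 in siNeg and 3233.43 in WT cells. The markers were not all even across libraries. Dcn was at 507.71 FPKM in Dyrk2-KO, 256.45 in siDyrk2, 237.79 in siNeg and 256.64 in WT cells. Thy1 was at 159.10 FPKM in Dyrk2-KO, 298.97 in siDyrk2, 369.61 in siNeg and 287.88 in WT cells. Of 6 endothelial markers only Tek reached 1 FPKM, Pecam1 was at 0.05 FPKM or less and Cldn5 was at 0 in the 4 libraries, and no epithelial marker of 6 reached 1 FPKM. Macrophage markers were present in every library: 10 of 12 were measured, none of the 12 was at 0, and the 10 summed to 515.96 FPKM in Dyrk2-KO, 362.80 in siDyrk2, 293.39 in siNeg and 253.35 in WT cells. The Y-linked gene Ddx3y was at 8.28 FPKM in Dyrk2-KO cells and no higher than 0.02 FPKM elsewhere, while Xist was between 26.37 and 37.05 FPKM in all 4.

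Most member promoters carry a sequence feature that the choice of genes did not use. RefSeq promoter windows on GRCm38.p6, from 250 bases before to 50 bases after the start site, were at hand for 42 of the 53 kept members, as 44 windows. The cell cycle genes homology words TTTGAA and TTCGAA were searched on both strands, as were CCAAT and 4 E2F words (TTTCCCGC, TTTGGCGC, TTTCGCGC and TTTGCCGC), and none of these words contains another. The 8 stretches below, of 120 bases each up to the RefSeq start site, show the arrangement. They were chosen after the positions were seen, and the capitals mark homology words and CCAAT in either orientation.
Cdk1, chr10:69352913-69353032, minus strand: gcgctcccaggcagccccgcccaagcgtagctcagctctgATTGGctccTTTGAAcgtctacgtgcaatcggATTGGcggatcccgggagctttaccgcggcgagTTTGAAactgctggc
Cdc20, chr4:118437344-118437463, minus strand: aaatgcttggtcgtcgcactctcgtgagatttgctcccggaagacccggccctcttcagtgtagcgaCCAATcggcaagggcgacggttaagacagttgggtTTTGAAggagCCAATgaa
Espl1, chr15:102296173-102296292, plus strand: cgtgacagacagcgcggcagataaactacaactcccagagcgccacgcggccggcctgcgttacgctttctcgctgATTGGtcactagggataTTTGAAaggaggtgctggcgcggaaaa
Ckap2, chr8:22185820-22185939, minus strand: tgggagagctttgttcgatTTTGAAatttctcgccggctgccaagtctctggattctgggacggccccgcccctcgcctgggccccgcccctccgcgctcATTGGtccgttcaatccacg
Ckap2l, chr2:129297213-129297332, minus strand: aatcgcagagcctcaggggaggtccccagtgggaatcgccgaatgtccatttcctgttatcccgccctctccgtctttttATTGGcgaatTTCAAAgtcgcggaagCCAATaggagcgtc
Top2a, chr11:99024190-99024309, minus strand: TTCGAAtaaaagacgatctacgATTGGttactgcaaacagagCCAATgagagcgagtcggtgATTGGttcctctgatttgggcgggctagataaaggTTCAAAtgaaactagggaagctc
Mki67, chr7:135716380-135716499, minus strand: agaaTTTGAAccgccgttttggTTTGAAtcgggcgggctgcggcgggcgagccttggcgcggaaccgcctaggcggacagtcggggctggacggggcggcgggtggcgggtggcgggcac
Mad2l1, chr6:66535101-66535220, plus strand: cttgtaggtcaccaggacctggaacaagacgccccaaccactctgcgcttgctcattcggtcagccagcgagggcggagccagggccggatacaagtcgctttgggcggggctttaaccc
In Cdk1, Cdc20, Espl1, Ckap2l and Top2a a homology word stood downstream of at least 1 CCAAT. Ckap2 and Mki67 are shown because their words lay farther from the start, and Mad2l1 because neither word occurred. GENCODE vM21 places its own gene start inside 3 of the 8 stretches, by 9 to 27 bases. Over all member windows, 81.8% held a homology word (36 of 44 windows, in 34 genes), against 19.2% of 32851 promoter windows of all genes and 13.7% of the windows of the measured genes. Within 100 bases before or 50 bases after the start the share was 77.3% for members, 8.59% for all promoters and 5.48% for measured genes. CCAAT was found in 77.3% of member windows, 37.4% of all and 38% of those of measured genes. At least 2 copies were in 54.5%, 11.7% and 14.3%. Both words together were in 70.5% of member windows, 7.52% of all and 5.5% of those of measured genes. The E2F words were in 4.55% of member windows, 2 of 44. That was close to the 4.05% of the windows of measured genes, with 2.26% for all promoters. Windows of 22 measured G1/S and DNA replication genes held a homology word in 12.5%, CCAAT in 66.7% and an E2F word in 33.3%. A match of letters is a description of the sequence and does not show that a factor binds there.

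**Figure D1:**
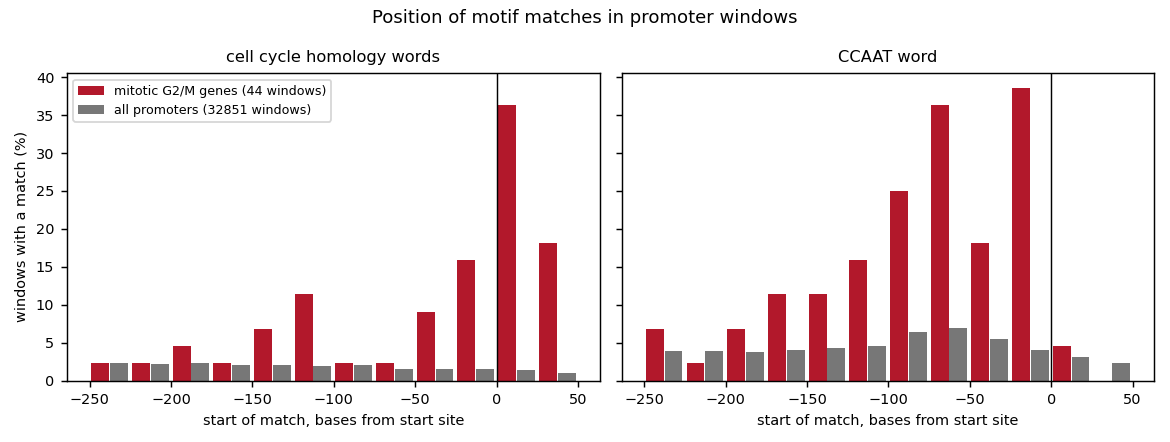
Share of promoter windows (percent, vertical axis) with a match that starts in each 25-base bin, against distance from the RefSeq start site in bases (horizontal axis), for the mitotic G2/M genes (red) and all promoters (grey). The left panel shows the homology words, which peak for the members in the first 25 bases after the start (36.4% against 1.43% of all promoters), and the right panel shows CCAAT, found for the members mostly upstream of the start.

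In Dyrk2-KO cells every kept member was lower than in WT cells. Their summed level was 150.76 FPKM in Dyrk2-KO and 371.31 FPKM in WT cells, a ratio of 0.406. On the log2(FPKM + 1) scale, which understates differences of low genes, the median was -1.02 for the 53 members and -0.02 for all 12817 measured genes. On that scale 30 of 53 members (56.6%) were at least 2-fold lower and 0 at least 2-fold higher, where 1.21% of all measured genes were at least 2-fold lower and 0.57% at least 2-fold higher. By any amount 53 of 53 were lower, against 55.6% of all genes. On the deposited FPKM without a pseudocount 48 of 53 were at least 2-fold lower (3.66% of all genes). The ratios of deposited FPKM had a median of 0.385, with quartiles at 0.358 and 0.422. Each ratio was given an exact 95% conditional binomial interval from the fragments behind it, which covers counting error only. That interval lay below 1 for all 53 members (26.2% of all genes). Fewer dividing cells and less of each transcript per dividing cell cannot be told apart in RNA from a whole culture.

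Other measures differed between the same 2 libraries. All 10 measured macrophage markers were higher in Dyrk2-KO than in WT cells, 2 of them at least 2-fold on FPKM + 1, and their defining genes Adgre1 and Csf1r were at 11.82 and 7.96 FPKM in Dyrk2-KO and at 6.32 and 4.00 FPKM in WT cells. Of the 10 fibroblast markers 7 were higher and 3 lower in Dyrk2-KO than in WT cells, where 43.7% and 55.6% of all genes were. Y-linked transcripts were found in the Dyrk2-KO library and not, beyond traces, in WT. With 1 culture each, these differences and the genotype cannot be told apart.

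**Figure D2:**
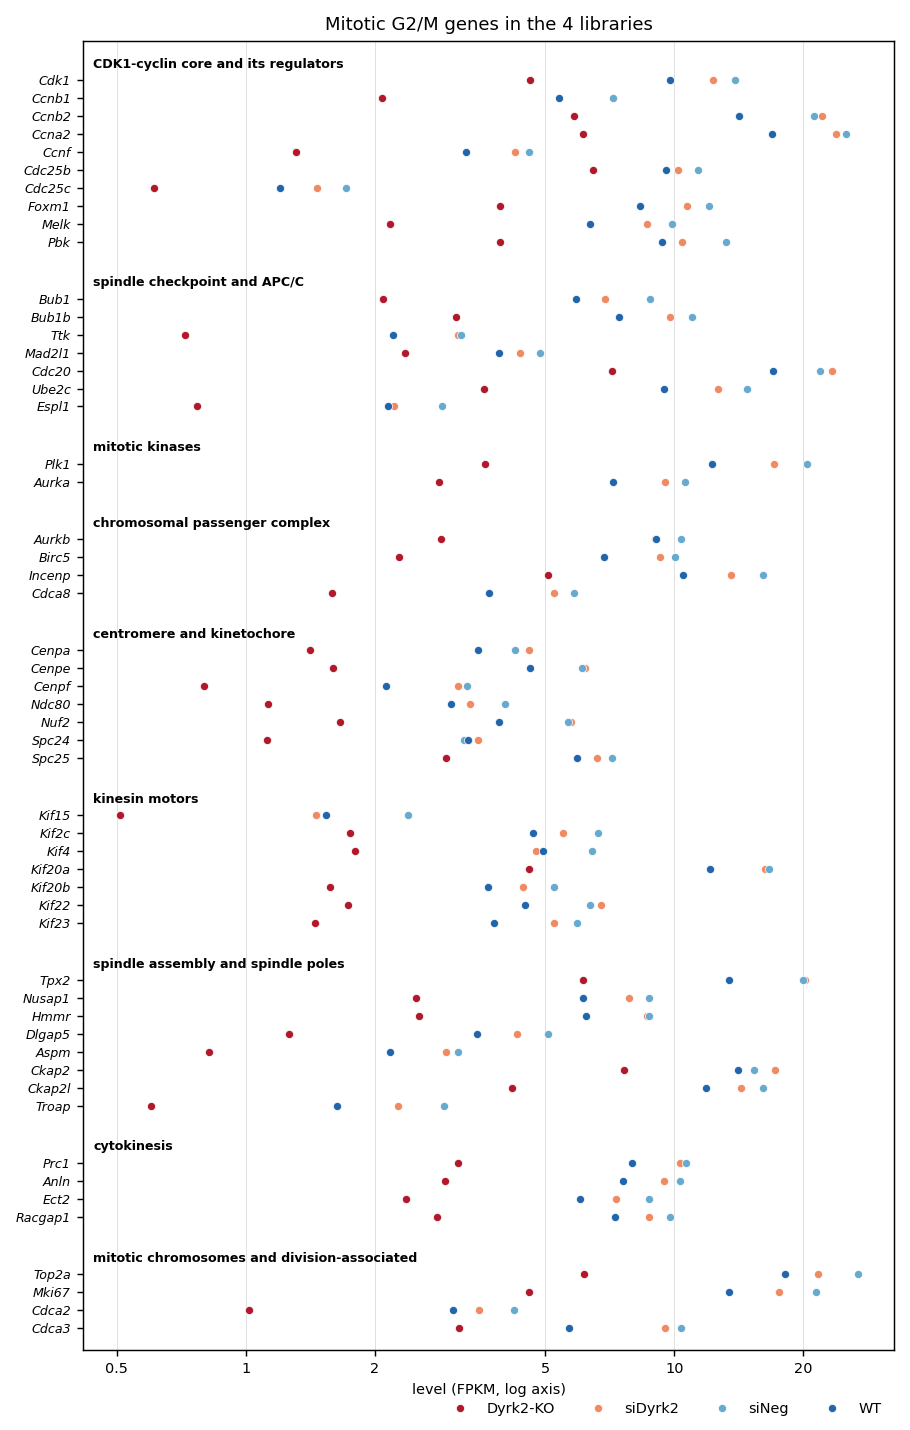
Level of each of the 53 kept genes (FPKM, logarithmic horizontal axis) in the 4 libraries, 1 point a library, grouped by role. The Dyrk2-KO point is the lowest in all 53 rows, and the siNeg or siDyrk2 point is the highest.

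The CDK1-cyclin group holds the engine of mitotic entry and the genes that regulate it. Cdk1 itself (ENSMUSG00000019942, chr10:69335146-69352938, minus strand), the mitotic kinase, was at 4.61 FPKM in Dyrk2-KO, 12.33 in siDyrk2, 13.86 in siNeg and 9.78 in WT cells. It was 2.12-fold lower (1.91 to 2.36) in Dyrk2-KO than in WT cells, the bracket being the counting interval. Ccna2 (ENSMUSG00000027715, chr3:36564865-36572150, minus strand), the cyclin of S and G2 phase, was the most abundant of the 10 at 6.11 FPKM in Dyrk2-KO, 23.79 in siDyrk2, 25.14 in siNeg and 16.85 in WT cells, and was 2.76-fold lower (2.50 to 3.04) in the knockout. Ccnb2, a B-type cyclin that activates Cdk1, was at 5.82 FPKM in Dyrk2-KO, 22.12 in siDyrk2, 21.15 in siNeg and 14.11 in WT cells. In these 3 genes Dyrk2-KO was lowest and WT second, with both transfected cultures above them. The other B-type cyclin, Ccnb1 (ENSMUSG00000041431, chr13:100778650-100786570, minus strand), was 2.58-fold lower (2.19 to 3.06) in Dyrk2-KO than in WT cells and equal in siDyrk2 and siNeg cells, at 7.20 FPKM each. The F-box protein gene Ccnf had a Dyrk2-KO to WT ratio of deposited FPKM of 0.402 (0.343 to 0.469), and the mitotic kinase genes Melk and Pbk had ratios of 0.342 (0.281 to 0.414) and 0.419 (0.345 to 0.505). Foxm1, the transcription factor of the G2 program, had a ratio of 0.472 (0.424 to 0.525). Among the genes of the phosphatases that remove inhibitory phosphates from Cdk1, Cdc25b was nearer to WT. Cdc25b (ENSMUSG00000027330, chr2:131186949-131198497, plus strand) was at 6.46 in Dyrk2-KO, 10.19 in siDyrk2, 11.33 in siNeg and 9.55 FPKM in WT cells, a Dyrk2-KO to WT ratio of 0.676 (0.606 to 0.755), the highest of the 53. Cdc25c was at 0.61 in Dyrk2-KO, 1.47 in siDyrk2, 1.71 in siNeg and 1.20 FPKM in WT cells, just inside the FPKM minimum. Its ratio of 0.508 (0.376 to 0.691) had an interval that also held the ratios of Ccnf and Foxm1.

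The 7 spindle checkpoint and anaphase-promoting complex (APC/C) genes had a median log2 ratio of -1.04 in Dyrk2-KO against WT cells, and 4 were at least 2-fold lower on FPKM + 1. Cdc20 (ENSMUSG00000006398, chr4:118432901-118437352, minus strand), the coactivator that the checkpoint holds back, was at 7.17 FPKM in Dyrk2-KO, 23.26 in siDyrk2, 21.89 in siNeg and 16.98 in WT cells. Ube2c, the ubiquitin-conjugating enzyme of the APC/C, was at 3.59 FPKM in Dyrk2-KO, 12.65 in siDyrk2, 14.75 in siNeg and 9.48 in WT cells. Bub1b, the checkpoint protein BubR1, was at 3.09 FPKM in Dyrk2-KO, 9.77 in siDyrk2, 10.98 in siNeg and 7.43 in WT cells. Dyrk2-KO was lowest and WT second in all 3 genes, while siDyrk2 was above siNeg in Cdc20 only. The checkpoint kinase genes Bub1 and Ttk were 2.82-fold lower (2.40 to 3.33) and 3.06-fold lower (2.38 to 4.02) in Dyrk2-KO than in WT cells, and the separase gene Espl1 was 2.79-fold lower (2.32 to 3.39). Mad2l1, the checkpoint protein Mad2, differed less, at 2.35 FPKM in Dyrk2-KO and 3.89 FPKM in WT cells, a ratio of 0.604 (0.535 to 0.680).

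Of the mitotic kinases, Plk1 (ENSMUSG00000030867, chr7:122159439-122169873, plus strand), which acts at centrosomes, kinetochores and the midbody, had the lowest Dyrk2-KO to WT ratio of all members. It was at 3.62 FPKM in Dyrk2-KO, 17.11 in siDyrk2, 20.39 in siNeg and 12.22 in WT cells, and was 3.38-fold lower (2.85 to 4.02) in Dyrk2-KO than in WT cells. Aurka, the kinase of spindle poles, was at 2.82 FPKM in Dyrk2-KO, 9.51 in siDyrk2, 10.60 in siNeg and 7.18 in WT cells and was 2.55-fold lower (2.12 to 3.08). Both kinases were lowest in Dyrk2-KO and highest in siNeg cells. Nek2, a centrosomal kinase, was under the minimum, at 0.05 in Dyrk2-KO, 0.07 in siDyrk2, 0.03 in siNeg and 0.03 FPKM in WT cells, which is 5 fragments in Dyrk2-KO, 7 in siDyrk2, 3 in siNeg and 3 in WT cells. The motor gene Kif11, whose product pushes spindle poles apart, was the only other member under the minimum, at 0.16 in Dyrk2-KO, 0.10 in siDyrk2, 0.19 in siNeg and 0.26 FPKM in WT cells. No ratio is read from either. Whether their values near 0 reflect few transcripts or how the deposited quantification treated these gene models was not tested, so they are given as listed.

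The chromosomal passenger complex corrects faulty attachments of chromosomes and guides cytokinesis, and all 4 of its genes were lower in the knockout. Its kinase gene Aurkb (ENSMUSG00000020897, chr11:69045647-69051664, plus strand) was at 2.86 FPKM in Dyrk2-KO, 9.03 in siDyrk2, 10.35 in siNeg and 9.07 in WT cells, and was 3.17-fold lower (2.69 to 3.76) in Dyrk2-KO than in WT cells. Birc5, which encodes survivin, was at 2.28 FPKM in Dyrk2-KO, 9.27 in siDyrk2, 10.02 in siNeg and 6.86 in WT cells. The scaffold gene Incenp was at 5.06 FPKM in Dyrk2-KO, 13.53 in siDyrk2, 16.06 in siNeg and 10.50 in WT cells, and its ratio of 0.482 (0.432 to 0.537) was above that of Aurkb, with intervals that did not overlap. Cdca8, which encodes borealin, had a ratio of 0.430 (0.360 to 0.512). In the Dyrk2-KO library the kinase was thus further below WT than the scaffold that holds it. The siNeg to WT ratio was 1.14 (1.02 to 1.28) for Aurkb and 1.53 (1.41 to 1.66) for Incenp. The size of this gap therefore depends on which control is used.

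The centromere and kinetochore genes were measured at low levels, from 0.80 to 2.93 FPKM in Dyrk2-KO and from 2.12 to 5.93 FPKM in WT cells. Spc25, of the NDC80 complex that binds microtubules, was at 2.93 FPKM in Dyrk2-KO, 6.60 in siDyrk2, 7.17 in siNeg and 5.93 in WT cells. Cenpe, a kinetochore motor, was at 1.60 FPKM in Dyrk2-KO, 6.18 in siDyrk2, 6.09 in siNeg and 4.61 in WT cells. Nuf2, also of the NDC80 complex, was at 1.66 FPKM in Dyrk2-KO, 5.74 in siDyrk2, 5.64 in siNeg and 3.90 in WT cells. All 3 were lowest in Dyrk2-KO cells, and in Cenpe and Nuf2 the siDyrk2 and siNeg values were close. Among the 4 subunits of the NDC80 complex the Dyrk2-KO to WT ratio was 0.494 (0.416 to 0.584) for Spc25, 0.426 (0.363 to 0.496) for Nuf2, 0.374 (0.310 to 0.447) for Ndc80 and 0.339 (0.252 to 0.452) for Spc24. Cenpa, the centromeric histone H3 variant, was at 1.41 FPKM in Dyrk2-KO, 4.59 in siDyrk2, 4.25 in siNeg and 3.48 in WT cells. Cenpf, a large protein of the outer kinetochore, had a ratio of 0.377 (0.327 to 0.434). The group's median log2 ratio was -0.89, and 2 of 7 were at least 2-fold lower on FPKM + 1.

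The 7 kept kinesin motors had Dyrk2-KO to WT ratios of deposited FPKM from 0.331 to 0.427. Kif20a, which takes part in cytokinesis, was the most abundant at 4.57 FPKM in Dyrk2-KO, 16.27 in siDyrk2, 16.63 in siNeg and 12.10 in WT cells. Kif22, a motor carried on chromosomes, was at 1.73 FPKM in Dyrk2-KO, 6.75 in siDyrk2, 6.36 in siNeg and 4.49 in WT cells. Kif2c, which shortens microtubules at centromeres, was at 1.75 FPKM in Dyrk2-KO, 5.50 in siDyrk2, 6.63 in siNeg and 4.69 in WT cells. In these 3 WT was below both transfected cultures and above Dyrk2-KO. Kif4 (ENSMUSG00000034311, chrX:100625737-100727214, plus strand), a chromosome-bound motor, and Kif15 (ENSMUSG00000036768, chr9:122951046-123018733, plus strand), which supports the bipolar spindle, had another order. Kif4 was at 1.80 FPKM in Dyrk2-KO, 4.76 in siDyrk2, 6.43 in siNeg and 4.94 in WT cells. Kif15 was at 0.51 FPKM in Dyrk2-KO, 1.46 in siDyrk2, 2.39 in siNeg and 1.54 in WT cells. In both, siDyrk2 was under WT. Kif23, of the centralspindlin complex, was 2.61-fold lower (2.26 to 3.02) in Dyrk2-KO than in WT cells, and Kif20b was 2.34-fold lower (2.02 to 2.73).

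The genes for spindle assembly and spindle poles included Ckap2, the only member whose siDyrk2 to siNeg ratio had a counting interval above 1. Tpx2 (ENSMUSG00000027469, chr2:152847964-152895321, plus strand), the activator of Aurora A on the spindle, was at 6.13 FPKM in Dyrk2-KO, 20.21 in siDyrk2, 19.92 in siNeg and 13.44 in WT cells, and was 2.19-fold lower (2.00 to 2.41) in Dyrk2-KO than in WT cells. Ckap2l, a spindle protein, was at 4.18 FPKM in Dyrk2-KO, 14.27 in siDyrk2, 16.10 in siNeg and 11.86 in WT cells, and was 2.84-fold lower (2.48 to 3.25). Its relative Ckap2 (ENSMUSG00000037725, chr8:22168160-22185819, minus strand) was at 7.61 FPKM in Dyrk2-KO, 17.21 in siDyrk2, 15.30 in siNeg and 14.07 in WT cells, and was 1.85-fold lower (1.67 to 2.05) in Dyrk2-KO than in WT cells. Ckap2 was highest in siDyrk2 rather than siNeg cells, and its WT and siNeg values were within counting error of each other. The microtubule-binding genes Nusap1, Hmmr and Dlgap5 had Dyrk2-KO to WT ratios of 0.406 (0.347 to 0.475), 0.406 (0.355 to 0.465) and 0.364 (0.308 to 0.432). Aspm, of the spindle poles, had a ratio of 0.378 (0.321 to 0.443). Troap was at 0.60 in Dyrk2-KO, 2.26 in siDyrk2, 2.90 in siNeg and 1.63 FPKM in WT cells, from 46 fragments in the Dyrk2-KO library, so that its ratio of 0.368 (0.257 to 0.516) was less exact.

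The 4 cytokinesis genes had the narrowest range of Dyrk2-KO to WT ratios of the 9 role groups. Prc1, which bundles the central spindle, was at 3.13 FPKM in Dyrk2-KO, 10.29 in siDyrk2, 10.67 in siNeg and 7.97 in WT cells. Anln, the contractile ring scaffold anillin, was at 2.92 FPKM in Dyrk2-KO, 9.46 in siDyrk2, 10.32 in siNeg and 7.58 in WT cells. Racgap1, the partner of Kif23 in centralspindlin, was at 2.80 FPKM in Dyrk2-KO, 8.74 in siDyrk2, 9.78 in siNeg and 7.25 in WT cells. Ect2, which activates RhoA at the cell equator, was at 2.36 FPKM in Dyrk2-KO, 7.31 in siDyrk2, 8.74 in siNeg and 6.02 in WT cells. These ratios were 0.385 to 0.393, and all 4 were at least 2-fold lower on FPKM + 1.

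Of the genes that act on mitotic chromosomes, Top2a (ENSMUSG00000020914, chr11:98992943-99024189, minus strand), which untangles DNA, was at 6.15 FPKM in Dyrk2-KO, 21.63 in siDyrk2, 26.74 in siNeg and 18.09 in WT cells. It was 2.94-fold lower (2.76 to 3.14) in Dyrk2-KO than in WT cells, on 1212 and 3901 fragments. Mki67 (ENSMUSG00000031004, chr7:135689784-135716361, minus strand), whose Ki-67 protein coats mitotic chromosomes and marks dividing cells, was at 4.58 FPKM in Dyrk2-KO, 17.55 in siDyrk2, 21.42 in siNeg and 13.43 in WT cells, and was 2.93-fold lower (2.73 to 3.15). Both were lowest in Dyrk2-KO and highest in siNeg cells. Cdca2, which brings protein phosphatase 1 to chromosomes, had a ratio of 0.334 (0.273 to 0.410). Cdca3 (ENSMUSG00000023505, chr6:124829547-124833701, plus strand), linked to mitotic entry, was at 3.14 FPKM in Dyrk2-KO, 9.51 in siDyrk2, 10.36 in siNeg and 5.69 in WT cells, with a Dyrk2-KO to WT ratio of 0.552 (0.463 to 0.657). It had the highest ratio of siNeg to WT of all members.

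Read across roles, most members were near a shared ratio in the Dyrk2-KO to WT comparison, but counting error alone did not cover all of them. The fragments of all 53 together gave a ratio of 0.399 (0.392 to 0.407), and the intervals of 38 members held that value. It lay below the intervals of 9 members, Cdk1, Cdc25b, Foxm1, Mad2l1, Incenp, Spc25, Tpx2, Ckap2 and Cdca3, and above those of 6, Plk1, Aurkb, Birc5, Cenpe, Top2a and Mki67. On FPKM + 1 the 5 lowest log2 ratios were Plk1 (-1.52), Top2a (-1.42), Aurkb (-1.38), Mki67 (-1.37) and Ccna2 (-1.33). The 5 highest were Cdc25c (-0.45), Cdc25b (-0.50), Mad2l1 (-0.55), Cdca3 (-0.69) and Troap (-0.72). The order on that scale varied with abundance. Across the 53 genes the log2 ratio went with mean level at Pearson's r = -0.62 (Spearman's rho = -0.63), against r = 0.12 (rho = 0.16) for the deposited FPKM ratio. Genes of 1 pair of libraries are not independent replicates, and these values describe the scale only.

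With siDyrk2 the members stayed close to their siNeg levels. Their summed level was 480.22 FPKM in siDyrk2 and 526.01 FPKM in siNeg cells, a ratio of 0.913. Of 53 members 43 were lower and 9 higher in siDyrk2 cells, with Ccnb1 equal, where 45% of all measured genes were lower and 54.3% higher. The median log2 ratio on FPKM + 1 was -0.14, against 0.02 for all genes. None of the 53 was at least 2-fold different, where 0.796% of all genes were at least 2-fold lower and 0.749% at least 2-fold higher. The counting interval lay below 1 for 28 members (23.1% of all genes) and above 1 for 1, Ckap2 (28.3% of all genes), and held 1 for 24. Kif15 had the lowest ratio, 0.611 (0.531 to 0.700), and on FPKM + 1 the log2 ratios were -0.46 for Kif15, -0.37 for Kif4, -0.31 for Pbk, -0.31 for Bub1 and -0.29 for Top2a. At the other end were Ckap2 (0.16), Cenpa (0.09), Spc24 (0.09), Cdc20 (0.08) and Kif22 (0.07). Ckap2 had a ratio of 1.12 (1.03 to 1.22). In the centromere and kinetochore group 3 genes were lower and 4 (Cenpa, Cenpe, Nuf2 and Spc24) higher in siDyrk2 cells, but only the interval of Ndc80, a lower one, excluded 1. The 4 cytokinesis, 4 chromosomal passenger and 4 mitotic chromosome genes were lower, with intervals that held 1 for Prc1, Birc5, Cdca8 and Cdca3, and differences between role groups were not tested. Macrophage markers were higher in siDyrk2 than in siNeg cells in 9 of 10. Their part in these ratios was not tested.

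The libraries with intact Dyrk2 also differed from each other. In siNeg against WT cells the members summed to 526.01 FPKM in siNeg and 371.31 FPKM in WT cells, a ratio of 1.42. Of 53 members 52 were higher in siNeg cells (48.3% of all genes) and only Spc24 was lower (51% of all genes). The median log2 ratio on FPKM + 1 was 0.43, against -0.01 for all genes, and no member was at least 2-fold higher (0.367% of all genes). The counting interval lay above 1 for 51 members (22.9% of all genes). It held 1 for the other 2, Spc24 at 0.979 (0.793 to 1.21) and Ckap2 at 1.09 (0.997 to 1.19). The highest log2 ratios on FPKM + 1 were those of Cdca3 (0.76), Plk1 (0.69), Mki67 (0.64), Ube2c (0.59) and Incenp (0.57). The lowest were Spc24 (-0.02), Ckap2 (0.11), Aurkb (0.17), Cdc25b (0.22) and Cenpa (0.23). All 10 macrophage markers were higher in siNeg than in WT cells too, and their part in the ratios was not tested. This comparison shares the WT library with the knockout comparison and the siNeg library with the siRNA comparison, so the 3 sets of ratios are not independent. The choice of control matters for the siRNA: against WT instead of siNeg, 3 members were lower in siDyrk2 cells (47.3% of all measured genes) and the summed level was 1.29 times that of WT. For the knockout it changes the size: against siNeg the summed Dyrk2-KO level was 0.287 times the control, against 0.406 with WT.

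**Figure D3:**
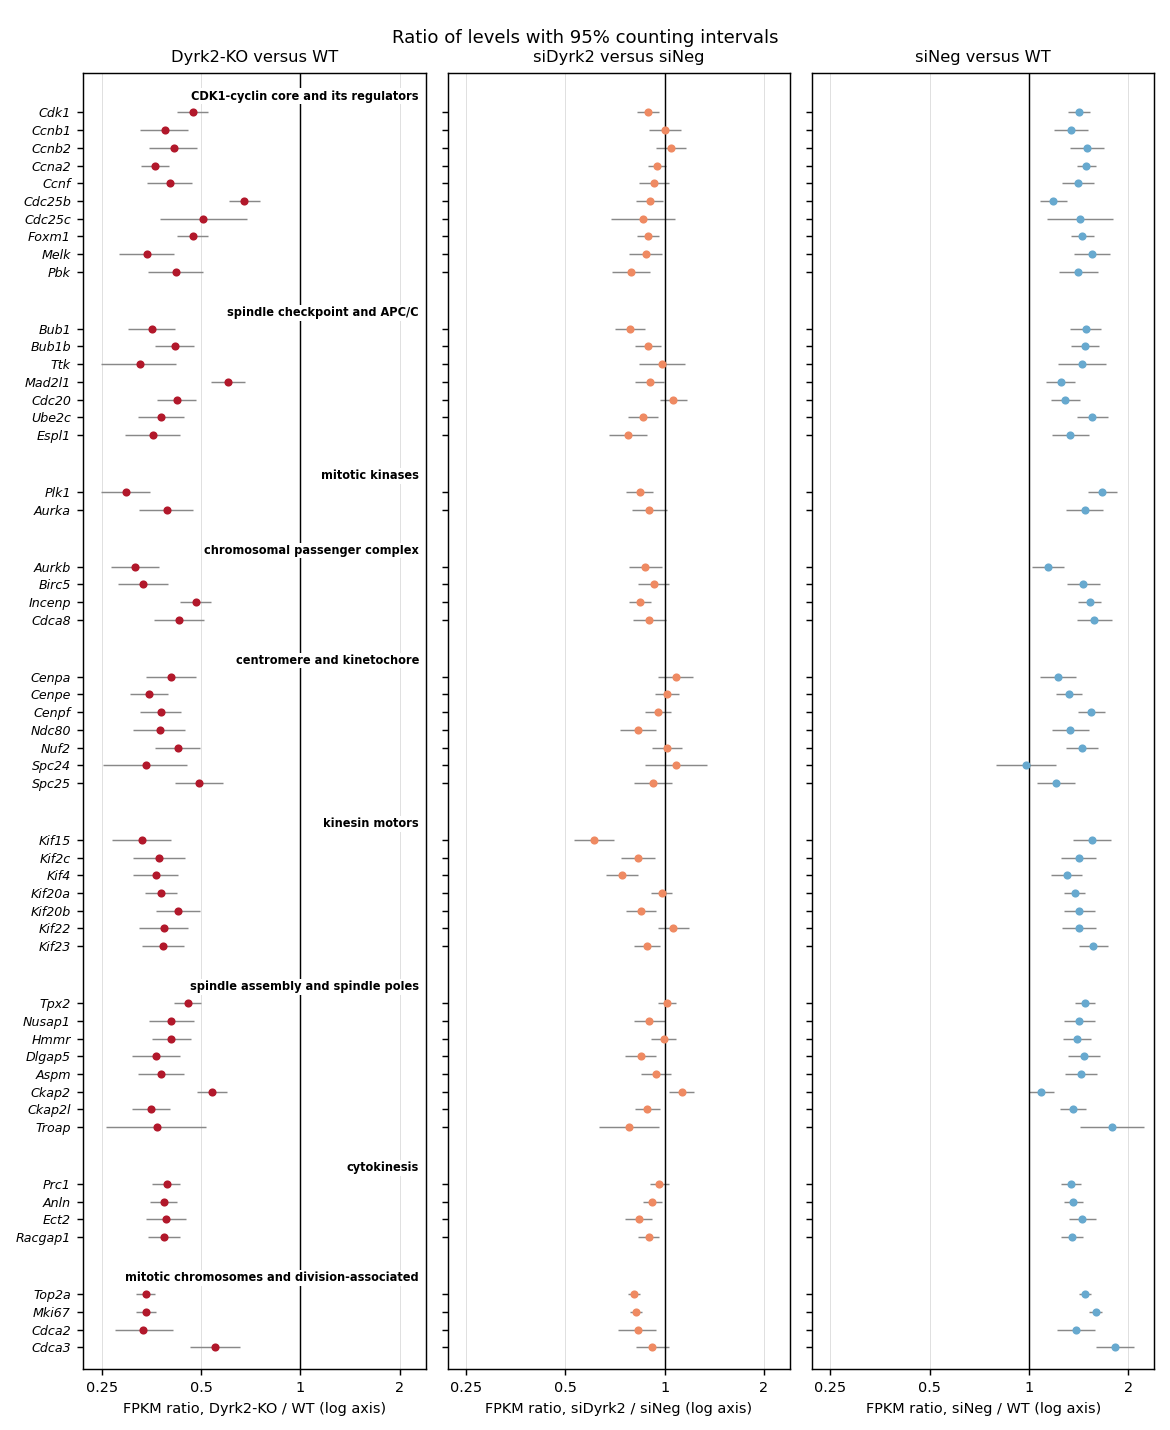
Ratio of deposited FPKM (logarithmic horizontal axes) for each kept gene in Dyrk2-KO versus WT, siDyrk2 versus siNeg and siNeg versus WT, with 95% counting intervals as bars. All 53 points are left of 1 in the left panel, 43 in the middle panel, and 52 are right of 1 in the right panel.

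The order of the 4 libraries was the same in most members. In 41 of 53 (77.4%) it was Dyrk2-KO, WT, siDyrk2, siNeg from low to high, counting Ccnb1, whose siDyrk2 and siNeg levels were equal. In 8 siDyrk2 and siNeg changed places, in 3 siDyrk2 was under WT, and in 1, Spc24, siNeg was under WT. Dyrk2-KO was the lowest library for 53 of 53 members and for 32.5% of all measured genes, and siNeg the highest for 43 of 53 and for 24.2% of all.

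Dyrk2 was at 0.57 FPKM in Dyrk2-KO and 0.81 FPKM in siDyrk2 cells, and the comparisons of these 2 libraries with their controls share no library. The Dyrk2-KO versus WT log2 ratio minus the siDyrk2 versus siNeg log2 ratio had a median of -0.89 over the 53 members and ran from -1.28 to -0.29, so the knockout ratio was the lower one for 53 of 53 members, as it was for 57.8% of all measured genes. The 2 ratios had opposite signs in 9 of 53 members and in 42.2% of all measured genes. This difference was not tested, because each comparison rests on 1 library a group. A joint fit with limma on log2(FPKM + 1), with lowered Dyrk2 and the approach as terms and 1 residual degree of freedom, asked which genes differed in both comparisons alike. Over 12219 genes, 0 passed limma's test (adjusted p under 0.05), with 1060 (8.68%) at an unadjusted p under 0.05 and a smallest adjusted p of 0.142. Of the 53 members it called 0, and 16 had an unadjusted p under 0.05. That number was 0 in a fit without the approach term and 1 when every gene with a value above 0 was tested. In the fit with both terms on 12219 genes the members' adjusted p by limma ran from 0.485 to 0.741, and their fitted log2 differences, lowered minus intact Dyrk2, had a median of -0.56 with a median standard error of 0.24.

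Other cell cycle genes were also mostly lower in Dyrk2-KO than in WT cells, and how many reached 2-fold varied with the scale. A list of 62 other mitotic genes had a median log2 ratio of -0.69 on FPKM + 1, with 59 lower and 8 at least 2-fold lower, against 35 of 62 (56.5%) on deposited FPKM, where 48 of 53 members were. It was led by the centromere gene Cenph (-1.28), the APC/C inhibitor gene Fbxo5 (-1.20) and Sgo1 (-1.06), which protects cohesion at centromeres. All 8 condensin genes were lower, with a median of -0.82, and 1 was at least 2-fold lower on FPKM + 1 and 5 on deposited FPKM. The lowest were Ncaph, at 2.57 FPKM in Dyrk2-KO and 6.43 FPKM in WT cells (-1.06), Smc2 (-0.98) and Ncapd2 (-0.95). The 27 G1/S and DNA replication genes were all lower, with a median of -0.71, of which 6 were at least 2-fold lower on FPKM + 1 and 11 on deposited FPKM. Uhrf1 (-1.54), which maintains DNA methylation, the cyclin gene Ccne2 (-1.44) and the ribonucleotide reductase gene Rrm2 (-1.26) led them. Among regulators of the members, 11 of 12 MuvB, DREAM and B-Myb genes were lower, with a median of -0.27, and the counting interval lay below 1 for 7 of the 12. None was at least 2-fold lower on FPKM + 1, and 1, Mybl2, was on deposited FPKM. Mybl2, which encodes B-Myb, was at 0.98 FPKM in Dyrk2-KO and 2.52 FPKM in WT cells (-0.83), Rbl1, which encodes p107, at -0.54 and Lin54, the DNA-binding MuvB subunit, at -0.40.

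The cohesin, APC/C core and CDK inhibitor lists had medians nearer 0 in the knockout comparison. The 9 cohesin genes had a median of -0.09 in Dyrk2-KO against WT cells, with 8 lower and Rad21 the lowest at -0.31. The counting interval lay below 1 for 6 of the 9, against 26.2% of all genes. The 15 genes listed as APC/C core, among them the coactivator gene Fzr1, had a median of -0.05, with 11 lower. The counting interval lay below 1 for 8 of these 15 and above 1 for 1. None of the 15 differed at least 2-fold on either scale, and Anapc15 (-0.34), Cdc27 (-0.30) and Cdc16 (-0.23) differed most. Among 7 CDK inhibitors the median was 0.06. Cdkn1c, which encodes p57, was at 380.70 FPKM in Dyrk2-KO, 175.35 in siDyrk2, 186.09 in siNeg and 207.89 in WT cells, a log2 ratio of 0.87 for the knockout. The log2 ratio was -0.79 for Cdkn2c and -0.47 for Cdkn2d. Cdkn1a, the p21 gene, was at 176.37 FPKM in Dyrk2-KO and 169.13 FPKM in WT cells. In siDyrk2 against siNeg cells the medians were -0.13 for the other mitotic genes, -0.21 for condensin, -0.18 for G1/S, -0.18 for MuvB, DREAM and B-Myb, -0.14 for cohesin and -0.00 for the APC/C core, against -0.14 for the members. In siNeg against WT cells they were 0.26 for the other mitotic genes, 0.32 for condensin, 0.13 for G1/S, 0.12 for MuvB, DREAM and B-Myb, 0.10 for cohesin and 0.04 for the APC/C core, against 0.43 for the members.

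**Figure D4:**
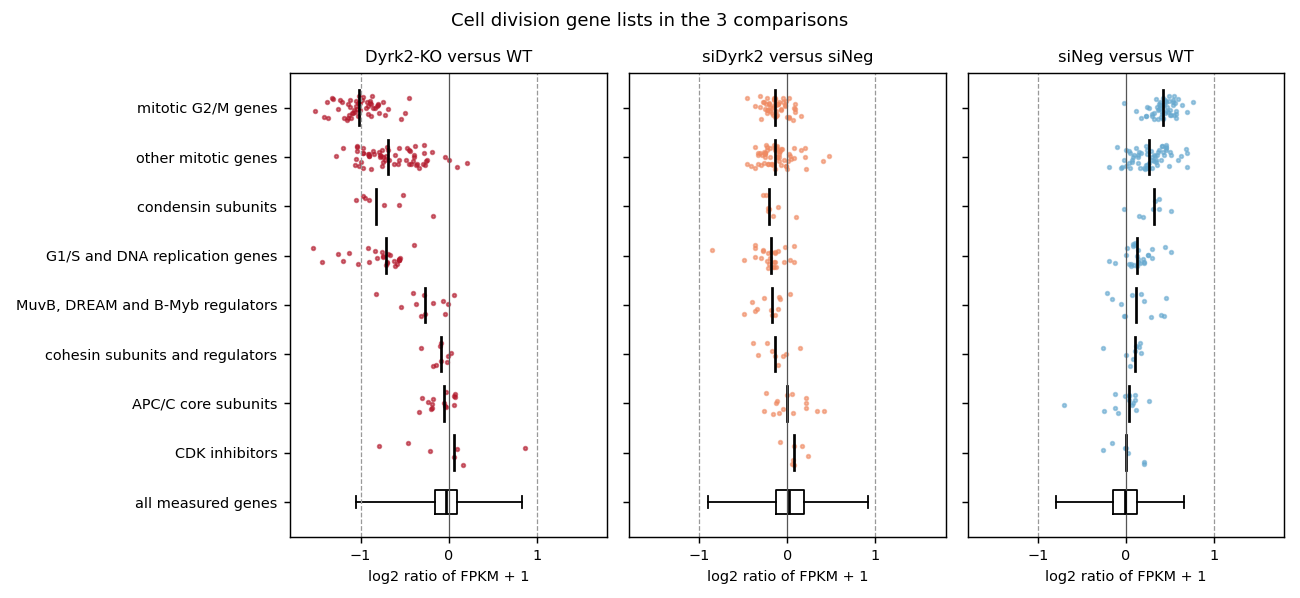
Log2 ratio of FPKM + 1 (horizontal axes) for each measured gene of 8 cell division lists in the 3 comparisons, with black bars at the medians and dashed lines at 2-fold. The box of all measured genes spans its quartiles with whiskers at the 1st and 99th percentiles, and in the left panel the member median (-1.02) lies near the lower whisker.

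Members with and without a homology word had close ratios. The 34 genes with a homology word had a median Dyrk2-KO to WT ratio of 0.386, and the 8 genes whose windows lacked one, Birc5, Ccnb1, Cenpe, Mad2l1, Melk, Nuf2, Nusap1 and Troap, had 0.378. Genes outside the set that carry the words were closer to WT than the members were. Of 237 measured genes outside the members with a homology word near the start and CCAAT in the window, 67.5% were lower in Dyrk2-KO than in WT cells with a median log2 ratio of -0.07, and 3.38% were at least 2-fold lower. With the genes of the other lists also left out, 213 remained, of which 64.3% were lower (median -0.06) and 2.35% at least 2-fold lower. Of 441 measured genes outside the members with an E2F word, 71.2% were lower (median -0.09) and 1.13% at least 2-fold lower. With the listed genes left out, 417 remained, of which 69.5% were lower (median -0.08) and 0.24% at least 2-fold lower. Of 9001 measured genes outside the members with any window, 55.3% were lower and 0.489% at least 2-fold lower. Without the listed genes these shares were 54.9% and 0.361% of 8875. These shares describe the letters in these windows, and they say nothing of which factor was bound.

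The members do not stem from 1 stretch of the genome. They lie on 18 chromosomes, with at most 9 on one, chromosome 2. Counting may mix some of them with neighbours, since 30 members overlap another annotated gene. Of these, 8 (Ccna2, Cdc25b, Cdc20, Cdca8, Kif4, Kif20a, Nusap1 and Prc1) overlap a gene that reached 1 FPKM. Those overlapping genes lie on the strand opposite to the member, except the rRNA gene n-R5s204 in Nusap1. That gene was at 1.05 FPKM in WT and 0 in Dyrk2-KO, siDyrk2 and siNeg cells. The counting rule, with its use of strand, is not given in the sources used here. Of the processed copies, Ccnb1-ps was at 0.60 FPKM in Dyrk2-KO, 1.85 in siDyrk2, 1.52 in siNeg and 1.07 in WT cells, and fragments of Ccnb1 and of this copy cannot be told apart here. The copies of Ccnb2, Kif4 and Kif22 were at 0.02 FPKM or less.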

How the data were processed

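Stranded libraries were made from polyA-selected RNA, per the labels' protocols. HISAT2 2.0.1, cutadapt 1.9.1 and build GRCm38 are named in the submitters' processing notes, and how fragments were counted is not given in the sources used here. Values are deposited as FPKM with 2 decimals, per the file headers. Multiplied by the authors' gene lengths in kilobases they sum to between 999996 and 1000003 in each library, so depth here means fragments assigned to genes. Symbols and coordinates came from GENCODE vM21 (55480 of 55573 identifiers matched). Fragments per gene were recovered from the depth that put every gene of at most 200 bases (341 to 402 a library) on a whole number within rounding, and intervals on them are exact 95% conditional binomial intervals. They cover counting error only. Ratios are log2((FPKM + 1)/(FPKM + 1)) or ratios of deposited FPKM. Groups followed the labels, with 1 library each. The 3 comparisons had no test. The joint fit used limma 3.58.1 in R 4.3.3 with a mean-variance trend and Benjamini-Hochberg adjustment, on the 12219 genes that reached 1 FPKM in 2 libraries or more. The residual of this fit measures only how far the knockout and siRNA pairs disagree. Other steps used Python 3.11.15, numpy 2.4.6, pandas 2.3.3, scipy 1.17.1 and matplotlib 3.10.9.

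The members, role groups and lists were chosen with earlier results of these data known. The naming rule took the 3 most abundant members of each of 9 role groups, the 5 lowest and 5 highest in each comparison, the members under the minimum, and up to 3 genes of each other list. It selected 38 members, and the remaining members, Cdkn1a and the printed promoters were added after values were seen. Alternatives were other pseudocounts, filters, scalings and controls.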

Additional observations from a re-analysis of the deposited data

Results flagged for a closer look

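Ckap2, a spindle protein gene, was 1 of 9 members whose 2 ratios had opposite signs, as they had in 42.2% of all measured genes. Among these 9 only Ckap2 had counting intervals that both excluded 1. The siDyrk2 to siNeg interval lay above 1 for 1 of 53 members and for 28.3% of all measured genes. Ckap2 was thus picked as the member with the highest siDyrk2 to siNeg ratio, 1.12 (1.03 to 1.22). It was lower in Dyrk2-KO than in WT cells (log2 ratio -0.81 on FPKM + 1) and higher in siDyrk2 than in siNeg cells (0.16). The first log2 ratio minus the second was -0.97. With 1 library a group this difference was not tested.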

How the results depend on the processing

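All 53 members stayed below 0 in Dyrk2-KO in each of the 9 alternatives (40 of them with a 5 FPKM minimum, which the other 13 did not reach), and no median changed sign against its own control. The pseudocount set the number of members at least 2-fold lower in Dyrk2-KO: 47 (median log2 ratio -1.32) with 0.1 FPKM and 1 (median -0.57) with 5 FPKM. The ratio of deposited FPKM, an alternative added after the data were seen, gave 48 (median -1.38). Against siNeg instead of WT the knockout gave 48, a median of -1.46 and a ratio of summed FPKM of 0.287. For siDyrk2 against siNeg the ratio of sums was 0.900 with trimmed-mean and 0.886 with median-ratio scaling. Against WT it was 1.29, with 3 members lower and a median of 0.31, the opposite sign. For siNeg against WT the median was 0.27 with a pseudocount of 5 FPKM, the ratio of sums 1.44 with median-ratio scaling, and the number of members lower 0 with a 5 FPKM minimum and 2 with no minimum. In the limma fit, leaving out the approach term left 597 genes and 0 members at an unadjusted p under 0.05, and testing every gene above 0 left 1 member. Calls at an adjusted p under 0.05 were 0 in each of these fits.

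No paired analysis was possible because each group holds 1 library. For the same reason leaving out a replicate was not run, and a group's treatment and its culture cannot be told apart. At 2 kb of length, 3 fragments correspond to 0.0627 to 0.0751 FPKM.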
